A study of Mus musculus with 12 samples.

Results

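The 200 transcripts described here were the ones that mouse oocytes lost least while they matured from the germinal vesicle (GV) stage to metaphase II (MII). They were chosen on wild-type (WT) values: of the 23230 genes listed, 4494 averaged 10 FPKM or more over the WT GV libraries and had a symbol outside a set of excluded gene families, and these were ranked by mean WT MII over mean WT GV. FPKM counts fragments relative to transcript length and library size, and the values had been scaled by the authors on the ERCC spike-in, a fixed amount of foreign RNA added to each lysate. The 200 highest ratios made up 4.45% of the ranked genes. Because WT GV and WT MII values chose these transcripts, every comparison that contains them is given below as a description without a test.

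The data held 12 Smart-seq2 libraries of 10 oocytes each, with 2 libraries in each of 6 groups: growing, GV and MII oocytes from WT and from Zar1/2-null females, all on a C57BL6/ICR hybrid background. Growing oocytes came from females of 13.5 days by the labels, GV oocytes from females of 21 days at 44 h after PMSG, and MII oocytes were collected 16 h after hCG. PMSG and hCG are the hormones that stimulate follicle growth and ovulation. The Zar1/2-null females carried CRISPR/Cas9 alleles of both genes, a frameshifting deletion in exon 1 of Zar2 and a small deletion followed by a stop codon in Zar1, which end the protein and need not remove the RNA. Nothing in the labels ties libraries to separate animals, so p-values measure the spread between these libraries, which may be technical. The MII label of the Zar1/2-null group names the time of collection and not a meiotic stage that was reached. The paper reports that ovulated oocytes of the null females were arrested within meiosis I, at metaphase or at telophase. A change from GV to MII in that group thus need not cover the same meiotic step as in WT.

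A full-grown oocyte is transcriptionally silent, and it completes meiosis on messages stored during growth. Many of these messages are deadenylated and degraded once meiosis resumes, while others gain a longer poly(A) tail and are translated. Cytoplasmic polyadenylation elements, U-rich motifs bound by CPEB proteins close to the polyadenylation signal, are the best known sequences that direct tail lengthening. ZAR1 and ZAR2 are RNA-binding proteins of the oocyte cytoplasm. Smart-seq2 primes cDNA with oligo-dT, so a longer tail and a larger amount of RNA cannot be told apart in these values.

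Of the 185 transcripts that had an annotated 3′UTR of at least 50 bases, 92 carried TTTTAT or TTTTAAT, the common forms of the cytoplasmic polyadenylation element, in the last 150 bases. The following 30-base stretches are shown because each holds such an element (capitals) near a polyadenylation hexamer (AATAAA or ATTAAA) in an abundant transcript or in one with a role in the cell cycle or mRNA turnover. They are written 5′ to 3′ in the sense of the transcript, from the mm9 assembly with GENCODE transcript ends, and the coordinates give the genomic span. Capitals mark the match nearest to the 3′ end. In Dpy30, Orc6, Cks1b, Zbed3 and Mad2l1 this match lies after the hexamer, and in Dpy30 it is the annotated end of the transcript. In Cnot7, Bcl2l10 and E330034G19Rik it lies before the hexamer. The last 150 bases held 3 matches in Cnot7 and 2 each in Cks1b, Zbed3 and E330034G19Rik. The other match of Zbed3, TTTTAAT in lower case, overlaps the hexamer, and those of the remaining 3 genes lie outside the stretches shown.
Dpy30, chr17:74698814-74698843, minus strand: aaataaactgttaaaacacctttaTTTTAT
Orc6, chr8:87832148-87832177, plus strand: tcaagcccaataaatgttatTTTTATatgc
Cnot7, chr8:41578390-41578419, minus strand: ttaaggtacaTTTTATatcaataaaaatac
Cks1b, chr3:89219394-89219423, minus strand: ttgattaaaggaagttTTTTATaatcttaa
Zbed3, chr13:96107767-96107796, plus strand: tttttttttaataaacTTTTATttatctgc
Mad2l1, chr6:66490956-66490985, plus strand: tgtaataaagaactcttaTTTTAATgtttt
Bcl2l10, chr9:75199396-75199425, plus strand: atTTTTAATaacttcaaattcttaataaat
E330034G19Rik, chr14:25129149-25129178, plus strand: tgTTTTATgaataataaacttttgtaactc

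Summed FPKM per library ranged from 121121 to 638056 and was lowest at MII in both genotypes, and 1 spike-in factor multiplies every gene of a library. These factors ran from 0.225 in a WT MII library to 1 in the WT growing libraries. No counts were available, so the depth behind a single value is unknown. Zar1l, another symbol for Zar2, was at 13.2 to 20.9 FPKM in the Zar1/2-null growing and GV libraries and at 504 to 644 FPKM in those of WT, while Zar1 RNA was still present in all Zar1/2-null libraries at 136 to 460 FPKM. Neither gene was among the 200. All 12 oocyte markers were above 0 in every library, and 18 granulosa and cumulus markers summed to 5.31 to 35.5 FPKM, with the lowest sums at MII. Only 1 of those 18 markers could be ranked, and it was not among the 200.

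The ratio of MII to GV in WT ran from 0.637 to 1.03 in the 200 transcripts, with a median of 0.698, and 2 of them were above 1. The other 4294 ranked genes had a median ratio of 0.178. At the boundary, 1810074P20Rik and Pld1 were inside at 0.637031 and 0.636850, and Rheb and Kdm6a were outside at 0.635276 and 0.634740, so the limit cuts a continuous range. A total of 26 transcripts had a ratio of 0.8 or more, 73 lay between 0.7 and 0.8, and 101 were under 0.7. In 172 of the 200 (86%) both MII libraries were still below both GV libraries, as in 99.3% of all ranked genes. These transcripts were thus retained and not raised on the scale of the spike-in. Before that scaling their median ratio was 2.37, against 0.600 for the other ranked genes. The scaled values of those other genes summed to 391475 FPKM at WT GV and 83534 FPKM at WT MII.

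Their weight in the transcriptome does not depend on the scaling. The 200 transcripts took 6.96% and 6.41% of all FPKM in the WT growing libraries, 7.17% and 7.15% at GV, and 21.9% and 21.0% at MII. In Zar1/2-null oocytes the shares were 6.75% and 6.30% while growing, 7.64% and 7.51% at GV, and 14.3% in both MII libraries. At MII both WT libraries were thus above both Zar1/2-null libraries. The WT MII values had chosen the members and the Zar1/2-null values had not, so a higher share in WT follows at least in part from the choice. On the spike-in scale the summed level of the 200 was nevertheless similar at MII, with a group mean of 26761 FPKM for WT and 27635 FPKM for the Zar1/2-null genotype. The other ranked genes summed to 83534 and 136774 FPKM. Unlike the shares, these sums depend on the scaling, with factors of 0.225 and 0.228 in the WT and 0.283 and 0.252 in the Zar1/2-null MII libraries.

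**Figure D1:**
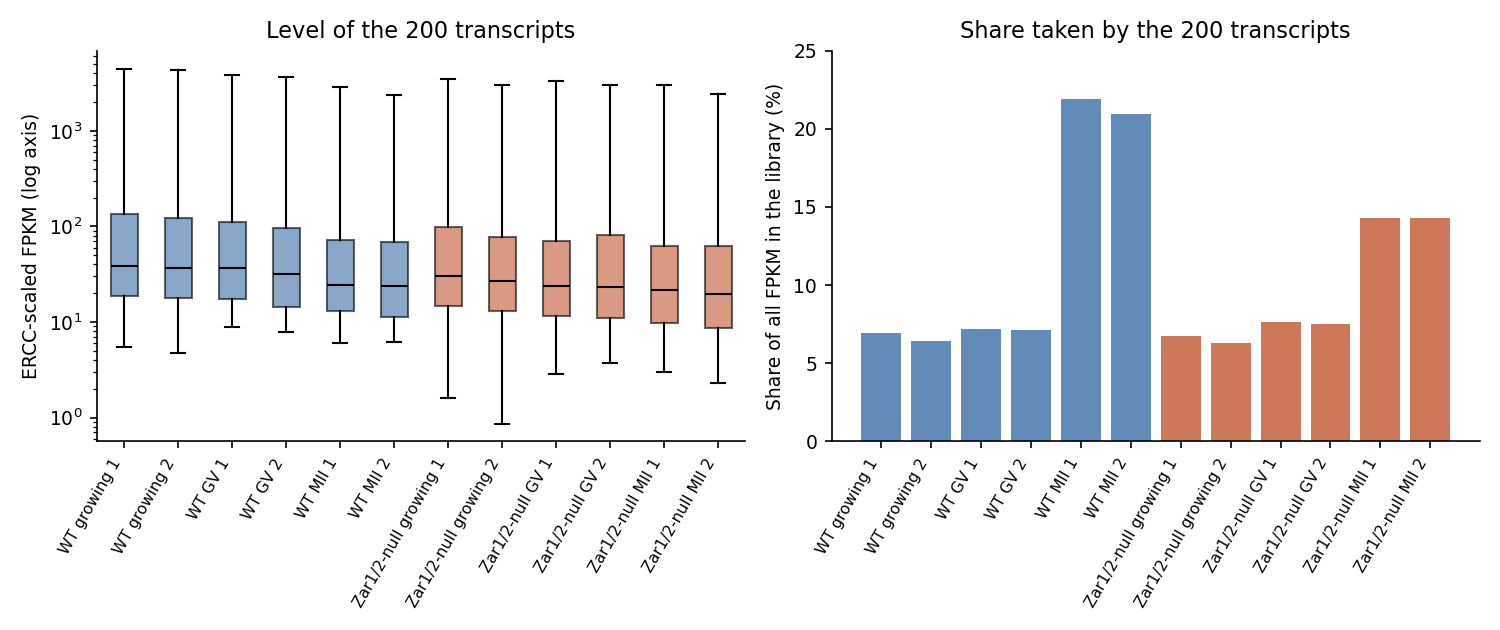
Left, ERCC-scaled FPKM of the 200 transcripts in each library on a log axis (boxes, quartiles with the median line; whiskers, lowest and highest transcript), and right, the percentage of all FPKM of the library that they take. Blue is WT and orange is Zar1/2-null; the share is 21.9% and 21.0% in the WT MII libraries, 14.3% in both Zar1/2-null MII libraries and between 6.30% and 7.64% in the others.

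Most of the 200 were of moderate abundance: 61 were under 20 FPKM in WT GV oocytes, 89 lay between 20 and 100 FPKM, 41 between 100 and 1000 FPKM, and 9 were at 1000 FPKM or more. At the head of the list in WT MII oocytes stood Pttg1 and Oosp1, with means of 2547.2 and 2547.1 FPKM that did not differ beyond the spread of their libraries. Pttg1 encodes securin, the inhibitor of separase that is destroyed at anaphase. Pttg1 was at 4483 and 4283 FPKM in WT growing oocytes, 3795 and 3625 FPKM at GV, and 2733 and 2361 FPKM at MII. In Zar1/2-null oocytes it was at 3211 and 3000, 3072 and 2620, and 2439 and 2091 FPKM at the same stages. It had the highest mean of the 200 in growing oocytes of both genotypes, while Oosp1 did in Zar1/2-null GV (3143 FPKM) and MII oocytes (2721 FPKM). The Pttg1 libraries of the 3 WT stages did not overlap.

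Oosp1, which encodes a secreted protein of the oocyte, was at 3656 and 3036 FPKM in WT GV oocytes and 2881 and 2214 FPKM at MII. All of the Oosp and Omt2 genes that could be ranked were among the 200, namely Oosp1, Omt2a and Omt2b, a group put together after the values were seen. Omt2b was at 1495 and 1168 FPKM in WT GV and 1075 and 861 FPKM in WT MII oocytes, and Omt2a at 688 and 537 FPKM and then 539 and 408 FPKM. Omt2a and Omt2b are close copies of each other, so the division of reads between them is uncertain.

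Bcl2l10, a BCL2 family member abundant in oocytes, was at 2699 and 2308 FPKM in WT GV and 1737 and 1484 FPKM in WT MII oocytes. In the Zar1/2-null libraries the values were 2015 and 2422 FPKM at GV and 2563 and 2275 FPKM at MII, which overlapped. Zbed3, which encodes a protein of the subcortical maternal complex, was at 1538 and 1634 FPKM in WT GV and 971 and 1197 FPKM in WT MII oocytes. Obox5, an oocyte homeobox gene, was at 1801 and 1411 FPKM and then 1207 and 902 FPKM, again without overlap. The other transcripts of high level at WT MII were Mphosph6, an RNA exosome cofactor, at a mean of 1302 FPKM, E330034G19Rik at 1206 FPKM, and Slbp, which encodes the stem-loop binding protein of histone mRNA, at 623 FPKM. Rn45s, the precursor of ribosomal RNA, was also listed at 1245 and 1956 FPKM at WT MII, but it comes from many near-identical copies and its replicates differed more than those of the messages.

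The 10 highest ratios in WT were those of D4Bwg0951e, A630055G03Rik, Gm20594, A830007P12Rik, Sap30, Srrm1, Dpy30, Sycp3, Tnfsf13b and Myef2. Sap30 encodes a subunit of the Sin3 histone deacetylase complex, and it was at 178 and 150 FPKM in WT GV and 157 and 155 FPKM in WT MII oocytes. Dpy30, a core subunit of the histone H3 lysine methyltransferase complexes, was at 395 and 329 FPKM and then 368 and 300 FPKM. For both genes the GV and MII libraries overlapped. Sycp3, a component of the synaptonemal complex, was at 69.9 and 30.7 FPKM at GV and 44.0 and 47.0 FPKM at MII, so that its ratio of 0.905 rests on the second GV library. Over the 200 transcripts the first WT GV library exceeded the second by a median of 0.28 on the log2 scale. When the ranking was made on replicate 1 alone, 163 of the 200 were found again, and on replicate 2 alone 142.

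Several fixed lists of oocyte genes contributed members. Of 42 ranked genes for the meiotic cell cycle and spindle checkpoint, 7 were among the 200 (16.7%): Pttg1, Cks1b, Mad2l1, Map2k1, Rad21, Anapc10 and Sgol2. Cks1b, a small subunit that binds cyclin-dependent kinases, was at 431 and 392 FPKM in WT GV and 305 and 267 FPKM in WT MII oocytes. Mad2l1, the MAD2 spindle checkpoint protein, was at 260 and 189 FPKM and then 164 and 134 FPKM. Map2k1, the MEK1 kinase of the MOS and MAPK pathway, was at 81.1 and 73.5 FPKM and then 52.7 and 47.8 FPKM. For these 3 genes both MII libraries were below both GV libraries.

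Of 16 ranked maternal mRNAs known to be activated for translation during maturation, 2 were among the 200, Cnot7 and Orc6, and the 16 had a median WT ratio of 0.460. Cnot7 encodes a catalytic subunit of the CCR4-NOT deadenylase, and it was the only member among 19 ranked deadenylation, decapping and uridylation genes. It was at 201.9 and 136 FPKM in WT GV and 135 and 124 FPKM in WT MII oocytes. Orc6, a subunit of the origin recognition complex, was at 176 and 133 FPKM and then 132 and 114 FPKM. It was joined by Gmnn (geminin, an inhibitor of replication licensing) and Rpa3 (a subunit of the single-strand binding protein RPA) among 39 ranked replication and repair genes. The signalling list, which as fixed also held secreted proteins of the oocyte, gave 4 of 35. They were Map2k1, Ppp1cb and Pde3b, and Oosp1 as such a secreted protein. Chromatin regulators gave 2 of 36, Arid1a and Crebbp.

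Each of the following lists had 1 member: spindle and chromosome segregation with Cep55 among 32 ranked genes, mRNA storage with Lsm14a among 26, the subcortical maternal complex with Zbed3 among 17, early embryo factors with Obox5 among 24, egg activation with the inositol trisphosphate receptor Itpr2 among 15, ubiquitin conjugation with Ddb2 among 39, and the oocyte markers with Oosp1 among 12. None of 73 ranked subunits of oxidative phosphorylation was among the 200. Their median WT ratio was 0.0189, with a range from 0.000825 to 0.635, and the highest, Ndufa10 at 0.634588, lay just outside the boundary. In Zar1/2-null oocytes these subunits had a median ratio of 0.416.

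Further small groups were noticed after the values were seen and are given as counts only. They were Med10, Med30 and Med31 of the Mediator complex (3 of 22 ranked), Taf4a, Taf13 and Gtf2a2 among general transcription factor subunits (3 of 24), Magoh and Magohb of the exon junction complex core (2 of 3), Ppp1cb, Ppp1r12a and Ppp1r14b of protein phosphatase 1 (3 of 10), Sap18 and Sap30 among Sin3-associated proteins (2 of 6), and Idi1 and Sc5d of sterol synthesis (2 of 7). Magoh and Magohb encode nearly the same protein, and how uniquely mapped reads divided between them is uncertain.

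**Figure D2:**
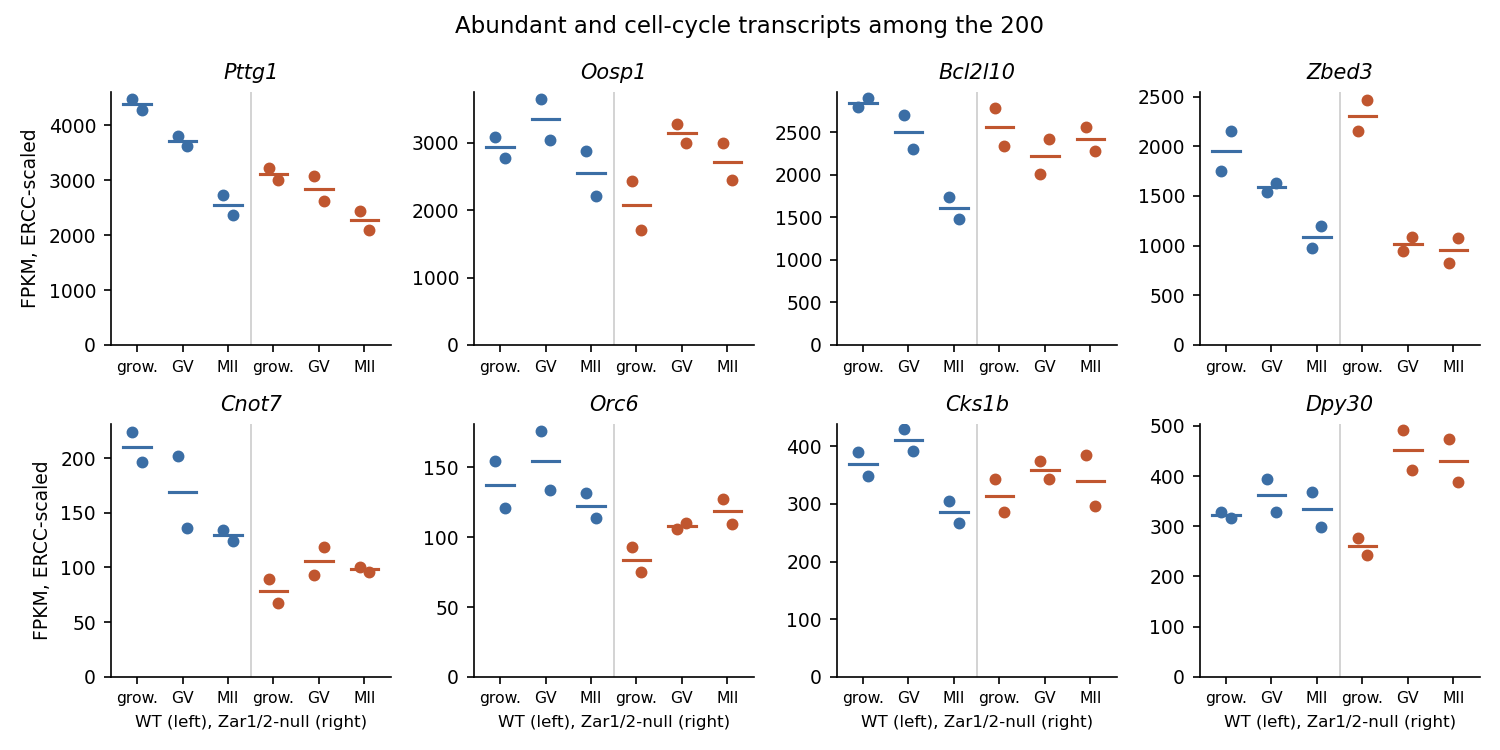
ERCC-scaled FPKM of 8 of the 200 transcripts in growing (grow.), GV and MII oocytes of WT (blue) and Zar1/2-null (orange) mice; points are the 2 libraries, lines their mean, and each vertical axis starts at 0. Pttg1 was at 2733 and 2361 FPKM in WT MII oocytes, and Zbed3 was the one of the 8 that differed most between Zar1/2-null growing oocytes (2154 and 2464 FPKM) and Zar1/2-null GV oocytes (946 and 1088 FPKM).

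The first question that the rule leaves free was whether the same transcripts were also retained in Zar1/2-null oocytes collected at the same time after hCG. Their median ratio of MII to GV there was 0.850, with a range from 0.268 to 1.69, against 0.364 for the other ranked genes. By the Zar1/2-null ratio 1 of the 200 lay under the median of the ranked genes, and 165 (82.5%) were within the highest 25% of them. The 200 highest Zar1/2-null ratios included 39 of them, which is 19.5% of each list. For these same 200, chosen on the spike-in scale, the counts were 1, 165 and 38 without the spike-in scaling and 1, 165 and 39 under median scaling, and the Zar1/2-null libraries had no part in the choice. The order of the genotypes did turn with the scaling: the Zar1/2-null ratio was above the WT ratio, which had chosen the members, in 156 of the 200 on the spike-in scale, in 13 without it and in 2 under median scaling, and in 86.8%, 52.1% and 39.3% of the other ranked genes.

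Limma on log2(FPKM + 1) with Benjamini-Hochberg adjustment over 11502 genes called 2 of the 200 higher and 32 lower in Zar1/2-null MII than GV oocytes (adjusted p under 0.05). The background was 0.209% of all genes tested called higher and 68.7% called lower, or 0.178% and 76.8% of the ranked genes, so that the 16% of members called lower were well under it. The median log2 difference of the 200 was -0.22, compared with -1.23 for the ranked genes and -0.72 for all genes tested. The direction of these counts belongs to the spike-in scale: without it 173 members were higher and 1 was lower, and with libraries scaled to a common median 198 were higher and none lower. Relative to the ranked genes the median of the 200 was higher by 1.02, 1.12 and 1.14 on the log2 scale under the spike-in, no and median scaling. Without the second Zar1/2-null MII library 15 members were lower, without the first none was higher, and without the second Zar1/2-null GV library 6 were higher.

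The 2 that rose were Mt4 and D4Bwg0951e, and both were called higher under all 3 scalings. Mt4, a metallothionein, was at 7.93 and 6.23 FPKM in Zar1/2-null GV and 12.8 and 10.1 FPKM in Zar1/2-null MII oocytes, a log2 difference of 0.63 ± 0.22 (SE; limma adjusted p = 0.027). In WT it was at 20.9 and 20.02 FPKM at GV and 13.8 and 13.6 FPKM at MII, so the libraries stood in the opposite order on the spike-in scale. Without that scaling the WT values were 24.97 and 28.7 at GV and 61.4 and 59.7 at MII, the same order as in Zar1/2-null oocytes. D4Bwg0951e was at 16.8 and 23.6 FPKM and then 41.9 and 26.6 FPKM in Zar1/2-null oocytes, a log2 difference of 0.72 ± 0.24 (limma adjusted p = 0.019). Its MII libraries differed by more than those of Mt4. Both calls depended on single libraries. The adjusted p from limma was up to 0.16 for Mt4 and 0.19 for D4Bwg0951e without the first Zar1/2-null MII library, and the calls were also lost without the second Zar1/2-null GV library for Mt4 and the first for D4Bwg0951e.

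The clearest exception to retention was Ugcg, the glucosylceramide synthase that makes the first glycosphingolipid. Ugcg was at 23.9 and 19.8 FPKM in Zar1/2-null GV and 6.60 and 5.09 FPKM in Zar1/2-null MII oocytes, where it fell by 1.74 ± 0.16 on the log2 scale (limma adjusted p = 2.4e-06). In WT it was at 56.2 and 47.7 FPKM and then 38.1 and 36.4 FPKM. Ugcg had the lowest Zar1/2-null ratio of the 200, and it was the one member still called lower without the spike-in scaling. Under median scaling this call was lost too.

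Paip1, which encodes a partner of the poly(A)-binding protein, fell from 117 and 112 FPKM to 62.9 and 50.9 FPKM, a log2 difference of -1.0002 ± 0.26 (limma adjusted p = 0.0056). Rad21, a cohesin subunit, fell from 8.42 and 5.59 FPKM to 3.01 and 2.90 FPKM (-0.99 ± 0.18, limma adjusted p = 0.00047). Exosc2, a subunit of the RNA exosome, fell by 0.95 and Acsl3, an acyl-CoA synthetase, by 0.93 on the log2 scale, and Taf13, a TFIID subunit, by 0.79. In each of these genes both MII libraries were below both GV libraries. Their direction was also bound to the scaling. Paip1, Exosc2, Acsl3 and Taf13 had differences from 0.0030 to 0.26 without it, and under median scaling they were called higher, by 0.72, 0.66, 0.76 and 0.94 (limma adjusted p = 0.032, 0.0051, 0.0035 and 0.0012). Rad21 turned to 0.49 under median scaling without a call.

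Few members of the fixed lists changed at this step on the spike-in scale. Of the 7 cell cycle members, 1 fell (Rad21), and of the 3 replication members, 1 fell (Gmnn, from 57.4 and 52.6 FPKM to 39.4 and 32.7 FPKM). On that scale Cnot7, Orc6, Cks1b, Mad2l1, Map2k1, Zbed3 and Oosp1 did not pass the test. Their log2 differences lay between -0.31 for Mad2l1 and 0.13 for Orc6, with standard errors from 0.15 to 0.21. Gmnn was called in the opposite direction without the spike-in scaling (0.44, limma adjusted p = 0.021) and under median scaling (1.12, limma adjusted p = 0.00025). On the spike-in scale its call was lost without the first Zar1/2-null GV or the second Zar1/2-null MII library (limma adjusted p up to 0.092). Across the 200, 166 members did not pass on the spike-in scale, and 50 had an unadjusted p under 0.05. Without that scaling 173 were called higher, and under median scaling 198.

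**Figure D3:**
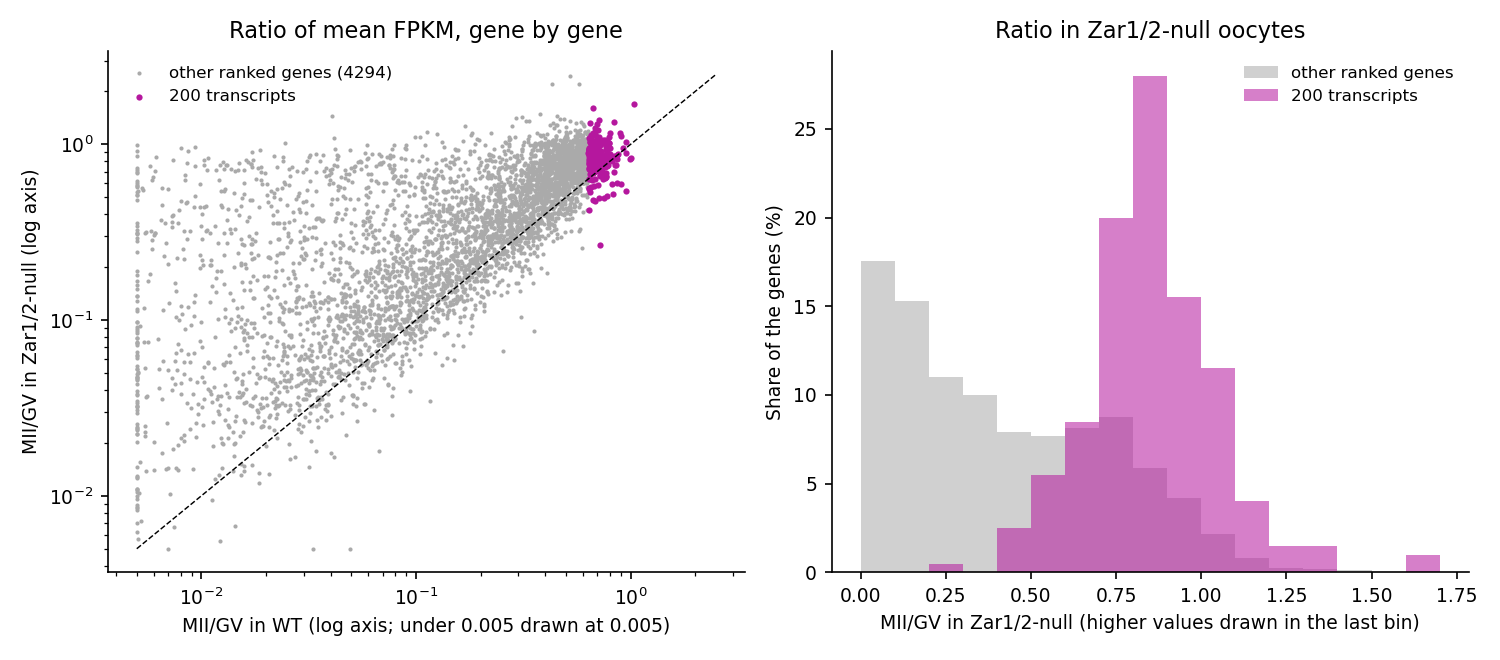
Left, ratio of mean MII to mean GV ERCC-scaled FPKM in WT against the same ratio in Zar1/2-null oocytes for 4494 ranked genes on log axes, with the 200 transcripts in magenta and equality as a dashed line. Right, the percentage of each set of genes by Zar1/2-null ratio, where the 200 centre on a median of 0.850 and the other ranked genes on 0.364.

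The second comparison took the transcripts back to growing oocytes, whose libraries had no part in the choice. The choice was still not neutral between genotypes, since it required a high level in WT oocytes and set no condition on Zar1/2-null oocytes, so the counts in each direction do not compare the genotypes evenly. The median ratio of Zar1/2-null to WT was 0.791, compared with 0.842 for the other ranked genes. Limma called 7 of the 200 higher and 71 lower. The background was 10.6% higher and 24.4% lower over all genes tested and 3.56% and 26.3% over the ranked genes, so 3.5% of members were higher and 35.5% lower. The median log2 difference of the 200 was -0.33, or -0.08 relative to the ranked genes. Scaling moved the median of all genes tested from -0.16 with the spike-in to 0.08 without it and -0.01 under median scaling, and 33 of the 71 lower and all 7 higher calls held under all 3 scalings. Leaving out the first WT growing library gave 34 lower and the second Zar1/2-null growing library 32 lower, and the higher count was 2 without the second WT growing library and 3 and 4 without the first and second Zar1/2-null growing libraries.

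Tmem171, a transmembrane protein gene, differed most. It was at 51.8 and 50.5 FPKM in WT and 5.34 and 6.72 FPKM in Zar1/2-null growing oocytes, a log2 difference of -2.90 ± 0.22 (limma adjusted p = 7.3e-06). Yaf2, which encodes a component of variant Polycomb repressive complexes, was at 28.1 and 30.4 FPKM against 4.62 and 3.72 FPKM (-2.56 ± 0.15, limma adjusted p = 2.6e-06). For both genes the gap between genotypes was many times the gap between libraries.

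Deptor, an inhibitor of the mTOR kinase, was at 52.3 and 59.6 FPKM in WT and 10.1 and 9.20 FPKM in Zar1/2-null growing oocytes (-2.42 ± 0.23, limma adjusted p = 2.9e-05). Bmp5, a growth factor of the BMP family, was at 80.9 and 76.8 FPKM against 18.6 and 10.5 FPKM (-2.41 ± 0.26, limma adjusted p = 7.3e-05), and the serpin gene Serpinb1c at 17.5 and 13.5 FPKM against 4.45 and 2.53 FPKM. In all 5 genes the libraries of the genotypes were far apart, and all 5 were called under each scaling. In WT, Bmp5 was lower at the later stages too, with 43.9 and 28.4 FPKM at GV and 24.8 and 26.4 FPKM at MII, whereas the Zar1/2-null libraries stayed between 10.5 and 18.6 FPKM.

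Both members of the translationally activated list were lower. Cnot7 was at 224 and 196 FPKM in WT and 89.0 and 67.7 FPKM in Zar1/2-null growing oocytes, a log2 difference of -1.42 ± 0.21 (limma adjusted p = 0.00053). Orc6 was at 154 and 121 FPKM against 92.8 and 74.9 FPKM (-0.70 ± 0.19, limma adjusted p = 0.016). The call on Cnot7 held under each scaling and that on Orc6 did not. Of the cell cycle members, Pttg1 (-0.50) and Mad2l1 (-0.62) were lower, and of the replication members Orc6 and Gmnn (-0.85). The storage protein gene Lsm14a (-0.52), Obox5 (-0.88) and the phosphodiesterase gene Pde3b (-0.49) were lower too. Among these, Gmnn and Obox5 were called under each scaling. Without the first WT growing or the second Zar1/2-null growing library the calls on Orc6, Pttg1, Mad2l1, Lsm14a, Obox5 and Pde3b were lost, with limma adjusted p up to 0.14, 0.16, 0.26, 0.088, 0.093 and 0.25 over the libraries left out.

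The transcripts that were higher included Hmgn3, a nucleosome-binding protein gene, at 9.32 and 11.5 FPKM in WT and 35.6 and 26.9 FPKM in Zar1/2-null growing oocytes (1.495 ± 0.23, limma adjusted p = 0.00059). The excess was also seen at GV, with 8.93 and 11.8 FPKM against 49.3 and 41.0 FPKM, and at MII, with 7.79 and 8.41 FPKM against 41.4 and 26.6 FPKM. Itpr2 was at 8.97 and 10.3 FPKM in WT and 23.7 and 20.04 FPKM in Zar1/2-null growing oocytes (1.10 ± 0.16, limma adjusted p = 0.00039). 1110002B05Rik, BC016495 and Gm20594 were higher by 0.91, 0.84 and 0.68 on the log2 scale, and Gch1 and Tmem107 completed the 7. Leaving out 1 growing library lost the calls on 1110002B05Rik, BC016495 and Gm20594 (limma adjusted p up to 0.062, 0.083 and 0.22; each without the second WT library, and the last 2 also without the first Zar1/2-null library, Gm20594 without the second as well).

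**Figure D4:**
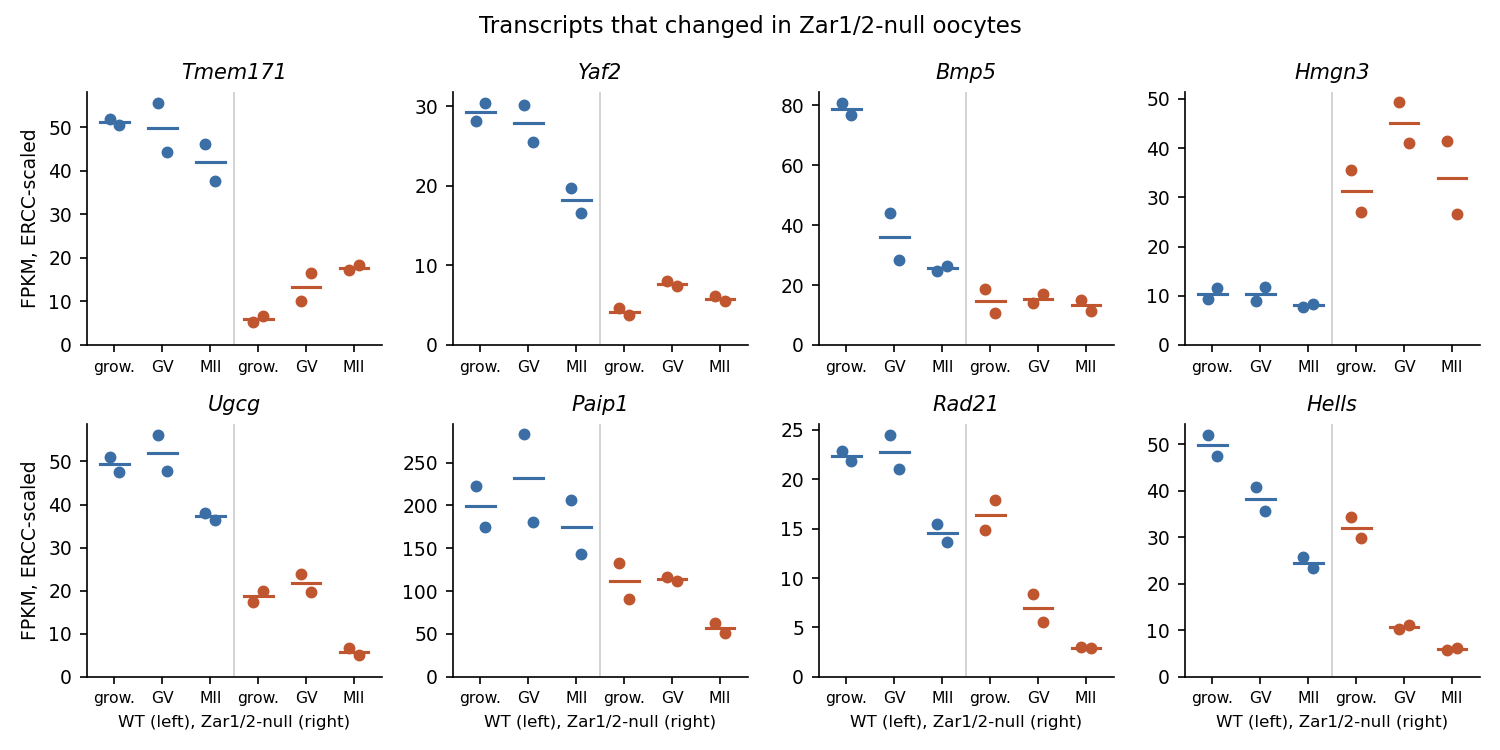
ERCC-scaled FPKM of 8 transcripts called in at least 1 comparison that involved Zar1/2-null oocytes, in growing (grow.), GV and MII oocytes of WT (blue) and Zar1/2-null (orange) mice; points are libraries, lines their mean, and each vertical axis starts at 0. Tmem171, Yaf2 and Bmp5 sit low at all Zar1/2-null stages, Hmgn3 sits high, Ugcg and Paip1 are lower at the Zar1/2-null MII stage than at GV, and Rad21 and Hells fall at both Zar1/2-null steps.

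The third comparison followed the transcripts through the last part of growth in Zar1/2-null oocytes. From growing to GV, 12 of the 200 rose and 63 fell (limma), against a background of 4.76% higher and 55.9% lower over all genes tested and 4.09% and 53.9% over the ranked genes; the members' shares were 6% and 31.5%. Their median log2 difference was -0.21, compared with -0.50 both for the ranked genes and for all genes tested. The counts again turned with the scaling, to 81 higher and 12 lower without the spike-in and to 98 and 2 under median scaling. Under all 3 scalings the 12 rises were called, and of the falls those of Hells and Wsb1. Without the second Zar1/2-null growing library 7 rose, and without the first 32 fell.

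The members that rose from the growing to the GV stage included some that were low in growing Zar1/2-null oocytes. Tmem171 rose from 5.34 and 6.72 FPKM to 9.99 and 16.5 FPKM (0.99 ± 0.22, limma adjusted p = 0.0026) and remained under the WT GV libraries, at 55.6 and 44.2 FPKM. Dpy30 rose from 277 and 243 FPKM to 492 and 413 FPKM (0.79 ± 0.18, limma adjusted p = 0.003), Fam165b from 148 and 107 FPKM to 243 and 210 FPKM, and 2810408I11Rik from 132 and 95.0 FPKM to 203 and 191 FPKM. Cth, an enzyme of cysteine synthesis, rose from 15.7 and 9.30 FPKM to 24.1 and 19.8 FPKM. Oosp1 rose from 2432 and 1711 FPKM to 3284 and 3002 FPKM (0.62 ± 0.21, limma adjusted p = 0.025). In each of these genes the libraries of the 2 stages did not overlap. The call on Oosp1 was lost without the second Zar1/2-null growing or either Zar1/2-null GV library (limma adjusted p up to 0.21), and that on Cth without any of 7 libraries (up to 0.28).

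Hells, a chromatin remodeller needed for DNA methylation, fell from 34.3 and 29.9 FPKM to 10.4 and 11.05 FPKM (-1.498 ± 0.14, limma adjusted p = 1.4e-05). Wsb1, a SOCS-box protein gene, fell from 11.5 and 9.58 FPKM to 2.84 and 4.59 FPKM (-1.31 ± 0.18, limma adjusted p = 0.00013). Zbed3 fell from 2154 and 2464 FPKM to 946 and 1088 FPKM (-1.18 ± 0.19, limma adjusted p = 0.00037), and the median scaling kept its direction without the call. D4Bwg0951e and the glucosamine-6-phosphate deaminase gene Gnpda2 fell by 1.25 and 1.15 on the log2 scale. Of the 7 cell cycle members, 4 fell (Rad21, Sgol2, Anapc10 and Map2k1), close to the 53.9% of ranked genes called lower, and both chromatin members did (Arid1a by 0.56 and Crebbp by 0.69). Map2k1 turned to a positive difference without the spike-in scaling and under median scaling, and Arid1a under median scaling. The call on Map2k1 was lost without the first Zar1/2-null growing or the first Zar1/2-null GV library and that on Arid1a without the second Zar1/2-null growing library (limma adjusted p up to 0.11 and 0.062). A total of 66 of the 200 passed the test in none of the 3 comparisons.

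At the stages that chose the transcripts, the genotypes are given as a description. At GV the median ratio of Zar1/2-null to WT was 0.715 for the 200 and 0.737 for the other ranked genes. At MII it was 0.887 for the 200 and 1.12 for the others. More than 3-fold differences at MII were counted in 9 members (lower) and 1 member (higher, Hmgn3). Of the 4294 other ranked genes, 658 were more than 3-fold higher (14.7% of all ranked genes were higher and 2.27% lower by this rule). The members were chosen for a high WT MII level relative to GV, which leaves them little room to be 3-fold higher in Zar1/2-null oocytes. The difference between these counts is thus largely set by the choice. In WT from growing to GV, the median ratio was 0.926 for the 200 and 0.798 for the others. All of these medians belong to the spike-in scale. Without it the ratio of Zar1/2-null to WT was 0.991 for the 200 and 1.01 for the others at GV. The corresponding MII medians were 0.749 and 1.001. The WT ratio of GV to growing was then 1.21 and 1.04, above 1 and not below it.

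The sequence of the transcripts was not used by the rule. Of the 200, 191 matched a GENCODE coding gene and 185 had a 3′UTR of at least 50 bases. Their 3′UTRs had a median length of 1048 bases and a median GC content of 37.5%, compared with 691 bases and 42.7% for the other ranked genes. When these were divided into 4 groups of near equal size by WT ratio, the group nearest to the 200 had a median 3′UTR of 1062.5 bases and 40.5% GC, so the length was not particular to the 200. The coding sequences had median lengths of 1104 bases in the 200, 1092 bases in the others and 1356 bases in the nearest group. TTTTAT or TTTTAAT was present in the last 150 bases of 49.7% of the 200. The share was 40.6%, 30.6%, 18.8% and 11.6% in the 4 groups of the other ranked genes, ordered from the highest to the lowest WT ratio. TTTTAT alone was in 39.5% against 19.6% of the others, and TTTTAAT alone in 18.4% against 8.001%. All motifs were searched on the transcript strand only, and both forms can occur in the same window.

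Other AU-rich words were also more frequent in the 200 than in all other ranked genes, but not always than in the nearest group. TATTTAT, which resembles the core of AU-rich elements and can overlap TTTTAT, was found anywhere in the 3′UTR of 36.2% against 22.1%, and TGTANATA, the Pumilio motif, in 28.1% against 21.1%. In the nearest group the shares were 32.9% and 29.8%, the latter above that of the 200. A polyadenylation hexamer, AATAAA or ATTAAA, lay in the last 50 bases of 85.4% against 78.7%, and of 83.4% in the nearest group. Among the other orders of the letters of TTTTAT, a comparison chosen after the values were seen, TTTTTA was in 42.7% against 23.4% and TTTATT in 29.2% against 20.1%. The nearest group had 37.2% for TTTTTA and 27.5% for TTTATT. The GC content of the 3′UTR moved with these shares. Within 3′UTRs of under 35% GC the share with TTTTAT or TTTTAAT was 68.9% in the 200 and 39.5% in the others, and at 45% GC or more it was 25% and 17.1%, also a split chosen after the values were seen.

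The difference was widest in short 3′UTRs. Among those of 150 to under 500 bases, 28 of 39 members (71.8%) held the element, against 25.4% of the other ranked genes. The shares were 49.3% and 26.3% at 500 to under 1500 bases, and 37.5% and 28.8% at 1500 bases or more. The other ranked genes were pooled here, and the group nearest to the 200 was not divided by length. Median 3′UTR GC content also differed most in the shortest class, at 36.1% in the 200 against 43.8%. It was 37.7% against 42.9% in the middle class and 37.8% against 41.7% in the longest. The short 3′UTRs with the element include those of Dpy30, Omt2b, Cks1b, E330034G19Rik and Bcl2l10, 4 of which are shown above. Of the 2 most abundant members at WT MII, Oosp1 held the element and Pttg1, with an annotated 3′UTR of 55 bases, did not. A match to these letters is a description of the annotated transcript end, which was not measured in these oocytes.

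**Figure D5:**
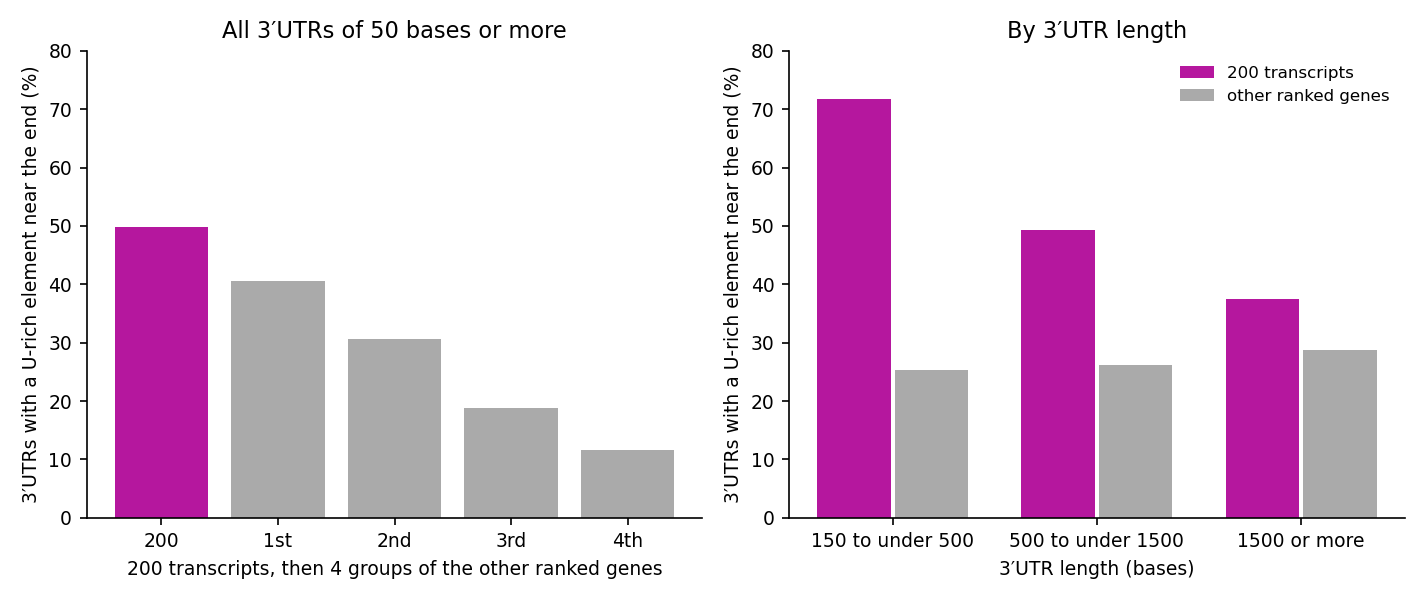
Percentage of annotated 3′UTRs with a U-rich cytoplasmic polyadenylation element in the last 150 bases, left in the 200 transcripts and in 4 groups of the other ranked genes from highest (1st) to lowest (4th) WT ratio of MII to GV, and right by 3′UTR length. The share is 49.7% in the 200, 40.6% in the 1st group and 11.6% in the 4th group. In 3′UTRs of 150 to under 500 bases it is 71.8% against 25.4% in all other ranked genes pooled.

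Members with and without the element had like ratios of MII to GV, with medians of 0.695 and 0.698 in WT and 0.871 and 0.833 in Zar1/2-null oocytes. On the spike-in scale, 11 of the 92 with the element fell from Zar1/2-null GV to MII (11.96%) and 19 of the 93 without it (20.4%). Of all ranked genes 76.8% fell. Over the whole set of 200, 1 member fell without that scaling and 0 under median scaling. In growing oocytes 36 of the 92 (39.1%) and 30 of the 93 (32.3%) were lower in the Zar1/2-null genotype, against 26.3% of the ranked genes. These shares were not compared by a test.

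The 196 members that could be placed on mm9 were spread over the chromosomes. Chromosome 2 held 21 of them (10.7%, against 7.70% of ranked genes), and the X chromosome held 1, the purine salvage gene Hprt (0.510%, against 3.01% of ranked genes).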

How the data were processed

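RNA of 12 libraries of 10 oocytes was measured by Smart-seq2 in 6 groups, named from the titles of the samples. The authors mapped 50-bp trimmed reads with TopHat2 2.1.1 (mm9), discarded multiply mapped ones and estimated FPKM per UCSC gene model with Cufflinks 2.2.1. The FPKM values deposited had each been multiplied by a library factor from the ERCC share. These factors were recovered from the 6 significant digits that Cufflinks prints, and dividing by them gave the unscaled values. How much of a change comes from the factor cannot be seen within 1 gene. Counts were not used here, so no counting interval is given.

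Genes with a symbol starting with Mir, Snor, Rnu, Rpl, Rps, Slc, Zfp, Kif, Usp, Rab, Ddx, Dhx, Eif, Fbx or Hist were left out of the ranking (420 genes at 10 FPKM or more). The members and gene lists were chosen with earlier results of these data known. The test was limma 3.58.1 (R 4.3.3), applied to log2(FPKM + 1) of the 11502 genes that reached 1 FPKM in any library, with 6 group means, all 12 libraries and an intensity trend. A fold change on this scale understates that of low genes. In 2 against 2 libraries an exact permutation test cannot go below p = 0.333 and was not used. The code was first tested on generated data with known changes. Named genes were the 10 highest WT ratios with the pair of genes on each side of the limit, the 10 highest WT MII levels, up to 5 members of each list by WT GV level, up to 5 calls in each direction and comparison whose higher group averaged 10 FPKM or more without overlap, and Zar1 and Zar1l. Genes outside this rule were named after their values were seen. 3′UTR features came from the GENCODE transcript of each symbol with the longest coding sequence, on the mm9 assembly. Python 3.11.15 with pandas 2.3.3 was used for the rest. Alternatives were other scalings, pseudocounts and filters, no trend, a replicate block, the 4 libraries compared alone, and leaving out each library.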

Additional observations from a re-analysis of the deposited data

Results flagged for a closer look

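For 3 named transcripts both libraries of one stage were above both of the other in 1 genotype and the order was the opposite in the other genotype. This opposite order was seen on the spike-in scale alone. Without the scaling and under median scaling the later stage was above the earlier one in both genotypes for Mt4 and Itpr2, and the BC016495 libraries of the Zar1/2-null stages overlapped. The difference between genotypes was not tested, since the WT GV libraries had chosen the transcripts. Mt4 had a ratio of MII to GV of 1.62 in Zar1/2-null and 0.670 in WT oocytes. Itpr2 had a ratio of GV to growing of 0.820 in Zar1/2-null and 1.35 in WT oocytes. BC016495 had a ratio of GV to growing of 0.508 in Zar1/2-null and 1.21 in WT oocytes.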

How the results depend on the processing

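Scaling decided the counts. In Zar1/2-null MII versus GV, 173 members were higher and 1 lower without ERCC scaling and 198 and 0 under median scaling, in place of 2 and 32. In Zar1/2-null GV versus growing the counts were 81 and 12, and 98 and 2, in place of 12 and 63. In growing oocytes 20 were higher and 34 lower without ERCC scaling, and 33 lower under median scaling, in place of 7 and 71. With no filter on low values, limma called 0 higher and 20 lower from Zar1/2-null GV to MII, where 50 members had an unadjusted p under 0.05 in the filtered fit, and 4 higher in growing oocytes. With only the 4 libraries compared, 1 was higher from GV to MII, and 7 were higher and 34 lower from growing to GV. The replicate block gave 59 lower from GV to MII and 19 higher from growing to GV, and all calls made without it were also made with it. The same-numbered libraries deviated together with correlations from -0.117 to 0.163. Such a correlation over genes cannot show a shift shared by all genes of a library. The factor was 1 in both WT growing libraries, although the paper lists unequal spike-in shares for them. For the 2 WT GV libraries the paper lists equal spike-in shares, yet their factors were 0.836 and 0.697. The reference of the scaling thus differed by replicate number, which ties same-numbered libraries. Over the 200 transcripts the first library exceeded the second in each group, by medians from 0.027 to 0.28 on the log2 scale. The main fit did not model this tie by number, and the replicate block did. A further pairing of the oocytes by number was not excluded. Leaving out 1 library at a time gave 0 to 6 higher and 15 to 37 lower from GV to MII, 2 to 7 higher and 32 to 75 lower in growing oocytes, and 7 to 16 higher and 32 to 65 lower from growing to GV. The pseudocount of 0.1, the mean of at least 5 FPKM and the fit without a trend left each count within 1.5 times. The members found again among the 200 highest were 180 without ERCC scaling, 194 by geometric means, 139 at 20 FPKM or more in WT GV and 196 without the symbol filter.

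Log2 differences changed sign for the following named members. From Zar1/2-null GV to MII they were, without ERCC scaling and under median scaling, 0.25 and 0.90 for A830007P12Rik, 0.44 and 1.12 for Gmnn, 0.048 and 0.72 for Paip1, 0.0030 and 0.66 for Exosc2, 0.087 and 0.76 for Acsl3, 0.26 and 0.94 for Taf13, 0.53 and 1.20 for 2810408I11Rik and 0.20 and 0.86 for Hells, and 0.49 for Rad21 under median scaling. From growing to GV they were 0.071 and 0.28 for Map2k1 and 0.065 and 0.26 for Exosc2, and, under median scaling, 0.10 for Sap30, 0.037 for 1810074P20Rik, 0.086 for Slbp and 0.17 for Arid1a. These changes follow from the factor that multiplies every gene of a library. The depth behind single values is unknown, so transcripts near 10 FPKM carry an unknown counting error.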
